A study of Mus musculus with 20 samples.

Results

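The genes of MHC class I antigen presentation, H2-K1, H2-D1, B2m, Tap1, Tap2, Tapbp, Psmb8, Psmb9, Psmb10 and Nlrc5, were followed in mouse brain progenitor cell lines. They were chosen by name, with earlier results of these data known, and all 10 were among the 18193 genes measured on the arrays. The 20 single-colour Affymetrix oligonucleotide arrays, 1 sample each, fell into 4 groups of 5, namely transduced embryonic progenitors, their embryonic controls, transformed postnatal progenitors and their postnatal controls. The labels describe the transduction as a genetic modification and name neither the introduced sequence nor the agent that transformed the postnatal cells, nor mouse strain, sex or exact age. Each array's title gives a cell line name of its own, numbered 1 to 5 within each group. The labels do not say whether these names stand for separate cultures or clones. So p-values speak of the spread among the samples of a group, and that spread may be technical. Background, defined per array, was exceeded by 61.3% to 73.2% of probe sets, and arrays of a group correlated with r between 0.939 and 0.960 across probe sets. The embryonic response denotes transduced minus control embryonic cells and the postnatal response denotes transformed minus control postnatal cells.

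MHC class I molecules carry short peptides made inside the cell to its surface, where cytotoxic T cells read them. Peptides are cut by the proteasome, pumped into the endoplasmic reticulum by the transporter Tap1-Tap2, and loaded with the help of tapasin, the product of Tapbp, onto a heavy chain such as H2-K1 or H2-D1, which pairs with the light chain B2m. Interferons induce the immunoproteasome subunits Psmb8, Psmb9 and Psmb10, which replace the catalytic subunits Psmb5, Psmb6 and Psmb7, and Nlrc5 is a transactivator of class I genes. Neural progenitors are generally described as low in class I, and interferon raises it.

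Rising in both responses does not set apart the 4 members whose promoters are shown here. These promoters are shown because some classes of element that drive class I genes can be read in them. They are RefSeq sequence of build GRCm38.p6, 5′ to 3′ on the strand of the gene, ending at the base before the annotated start of transcription, and the letters in capitals are motif matches found on either strand.
H2-K1, chr17:34000334-34000513, minus strand: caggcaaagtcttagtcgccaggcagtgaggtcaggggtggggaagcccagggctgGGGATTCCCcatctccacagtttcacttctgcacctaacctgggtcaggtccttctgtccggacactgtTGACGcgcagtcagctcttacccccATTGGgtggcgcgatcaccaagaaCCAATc
H2-D1, chr17:35262914-35263093, plus strand: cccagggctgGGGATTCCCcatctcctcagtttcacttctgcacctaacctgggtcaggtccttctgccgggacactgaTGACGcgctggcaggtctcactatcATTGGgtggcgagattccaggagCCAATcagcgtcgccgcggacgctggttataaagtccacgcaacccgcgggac
B2m, chr2:122147507-122147686, plus strand: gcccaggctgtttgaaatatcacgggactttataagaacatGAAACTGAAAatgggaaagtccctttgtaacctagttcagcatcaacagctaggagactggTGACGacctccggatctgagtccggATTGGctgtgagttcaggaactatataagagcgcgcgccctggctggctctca
Tap1, chr17:34187326-34187555, plus strand: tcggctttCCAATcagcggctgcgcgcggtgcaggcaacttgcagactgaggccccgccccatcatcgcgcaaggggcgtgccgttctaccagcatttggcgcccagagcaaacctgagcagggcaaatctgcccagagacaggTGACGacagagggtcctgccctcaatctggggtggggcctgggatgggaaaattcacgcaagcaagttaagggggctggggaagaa

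The motifs searched were the Y box CCAAT, bound by NF-Y, the X2 core TGACG, bound by CREB-type factors, an IRF motif of GAAA, any 2 bases and GAAA, and the kappaB site GGGATTCCC. The kappaB letters were chosen after the sequences had been seen. Promoter windows of 300 bases, 250 before and 50 after the start, were at hand for 8 of the 10 members, all but Tap2 and Nlrc5. The Y box was found in 6 of the 8 members with a window and in 37.4% of the 32851 windows of all genes. The X2 core was found in 5 of the 8, H2-K1, H2-D1, B2m, Tap1 and Psmb9, and in 20.8% of all windows. In both heavy chain genes and in B2m it lies upstream of a Y box. In Tap1 it lies at -86, downstream of the Y box at -222, counted in bases from the start. The printed H2-K1 and H2-D1 sequences share an unbroken run of 40 bases. The kappaB letters were in H2-K1 and H2-D1 and in 0.35% of all windows. In the exact letters searched, the IRF motif was in B2m alone among the 8 (3.44% of all windows). Looser forms of it were not searched, so its absence elsewhere says nothing of other interferon elements. Psmb8 and Psmb10 had none of these motifs, and Tapbp had the Y box alone. The starts of Tap1 and Psmb9 face away from each other, and their windows overlap, so their Y box and X2 core are the same 2 sites. The matches describe letters and show no binding, and whether they bear on the rise was not tested.

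All 10 genes read higher in both modified groups than in the matching controls, with no overlap between arrays of the groups. Calls required both an adjusted p under 0.05 and at least 2-fold, in a limma model over all 18193 genes and 20 arrays fitted on log2(signal + 16). By that rule 9 of 10 members rose in the embryonic response, where 8.61% of all genes were called higher, and 9 of 10 rose in the postnatal response, where 9.56% were. Since the list was drawn up with such results in view, these counts describe the members and are no independent evidence of their direction. Groups did not overlap and were higher in 18.8% of all genes in the embryonic response and in 16.4% in the postnatal response. The members' median log2 change was 2.11 in the embryonic response, against 0.08 for all genes, and 1.86 in the postnatal response, against -0.00 for all genes. The member outside the calls was Psmb10 in both responses. Averaged over the members, postnatal control arrays 4 and 5 read lowest of their group, though not for each gene. Some genes outside the members set these arrays apart too, in either direction. Sox10 read 37463 and 39456 on them, against 10721 to 20093 on the rest of the group. Pdgfra read 38111 and 37323, against 47447 to 59138. With postnatal control arrays 4 and 5 left out, 8 of 10 members rose in the postnatal response, Tap1 being the one lost. Over all genes, 3002 were called in either direction without these arrays, against 2904 with them.

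**Figure D1:**
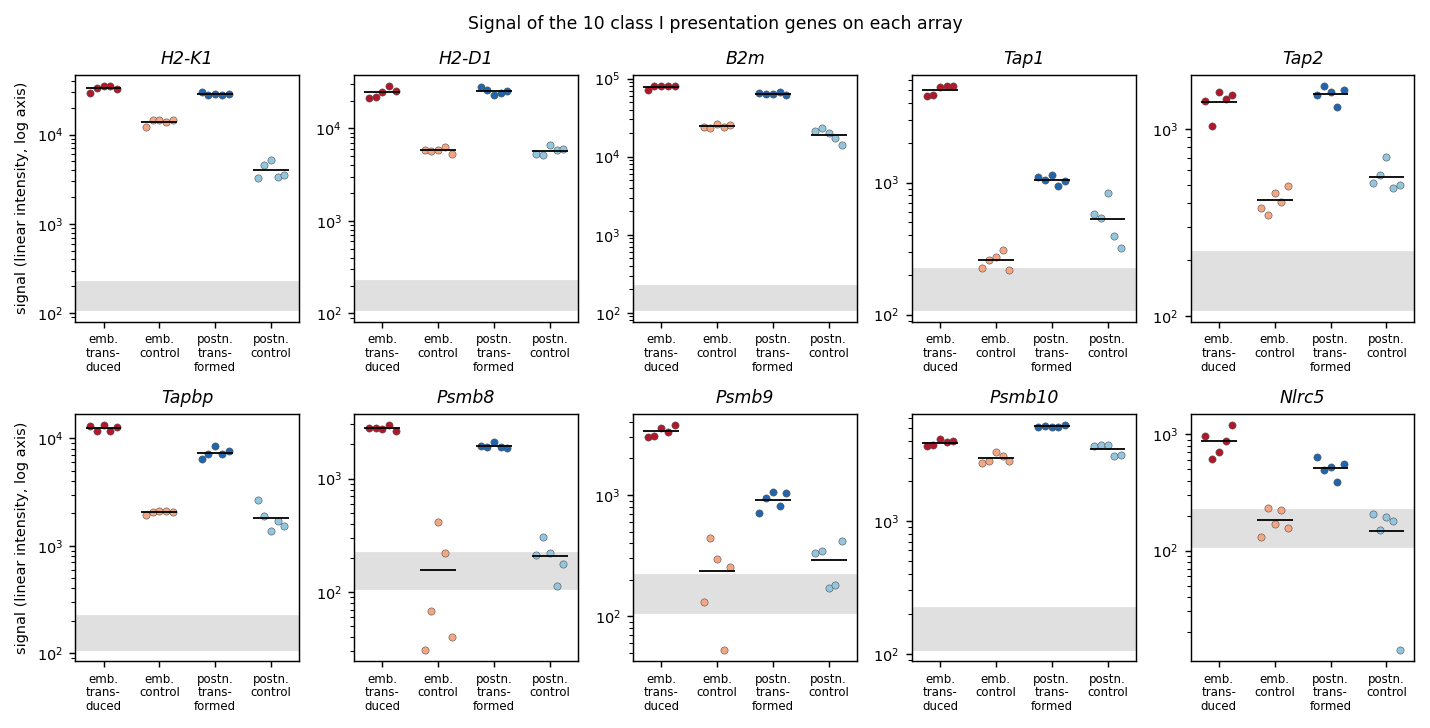
Signal (linear intensity on a log axis) of each member on the 5 arrays of each group, with the group mean as a bar; the grey band spans the background levels of the 20 arrays, 107 to 221. In each panel the arrays of a modified group lie above all arrays of its own control.

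H2-K1, a classical heavy chain, had signals of 28919, 33260, 34624, 35138 and 32116 in transduced embryonic cells, against 12119, 14602, 14481, 13730 and 14556 in embryonic controls. In postnatal cells it had 30190, 27573, 28533, 27466 and 28239 after transformation, against 3305, 4547, 5243, 3308 and 3559 in the controls. The modified groups of both ages overlapped, while the postnatal controls lay below every embryonic control array. H2-K1 rose by 1.24 ± 0.10 on the log2 scale (SE; 2.36-fold; adjusted p = 1.58e-09) in the embryonic response and by 2.85 ± 0.10 (7.21-fold; adjusted p = 2.78e-15) in the postnatal response.

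H2-D1, the other classical heavy chain, had signals of 21521, 21782, 24609, 28866 and 25380 in transduced embryonic cells, against 5839, 5652, 5864, 6293 and 5242 in embryonic controls. Transformed postnatal cells gave 27865, 26070, 22704, 24157 and 25151, against 5252, 5210, 6532, 5851 and 5916 in postnatal controls. The control groups overlapped each other, and so did the modified groups. H2-D1 rose by 2.07 ± 0.08 (4.20-fold) in the embryonic response and by 2.13 ± 0.08 (4.37-fold) in the postnatal response.

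B2m, the light chain shared by all classical class I molecules, gave 71504, 80790, 79731, 79220 and 80095 in transduced embryonic cells, against 23735, 23124, 25883, 23618 and 25279 in embryonic controls. In transformed postnatal cells it gave 65678, 64247, 62625, 66594 and 61050, against 21158, 23076, 20298, 17332 and 13917 in postnatal controls. It rose by 1.69 ± 0.09 (3.22-fold) and by 1.76 ± 0.09 (3.39-fold) in the embryonic and the postnatal response. In this probe set its 4 groups did not overlap one another, and the embryonic group was the higher of each pair of like treatment. In the other B2m probe set embryonic controls, at 18254 to 23122, overlapped postnatal controls, at 11996 to 19069. There the modified groups overlapped too.

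Tap1, a subunit of the peptide transporter, set the responses apart. It had signals of 4568, 4661, 5326, 5429 and 5381 in transduced embryonic cells, against 227, 260, 274, 309 and 217 in embryonic controls, which lay just above background. Transformed postnatal cells had 1110, 1052, 1136, 939 and 1033, against 580, 536, 837, 395 and 321 in postnatal controls. Tap1 rose by 4.22 ± 0.19 (18.7-fold; adjusted p = 6.62e-14) in the embryonic response and by 1.03 ± 0.19 (2.04-fold; adjusted p = 9.74e-05) in the postnatal response, just past the 2-fold threshold. The postnatal call was lost without postnatal control array 4 (0.94) or array 5 (0.87), and without both (0.70).

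Tap2, the transporter's other subunit, had signals of 1403, 1041, 1568, 1439 and 1507 in transduced embryonic cells, against 379, 348, 455, 408 and 497 in embryonic controls. In transformed postnatal cells it had 1520, 1696, 1580, 1299 and 1607, against 513, 568, 709, 486 and 502 in postnatal controls. The modified groups overlapped each other, and so did the controls. Tap2 rose by 1.70 ± 0.15 in the embryonic response and by 1.45 ± 0.15 in the postnatal response.

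Tapbp, the loading chaperone tapasin, had signals of 13038, 11638, 13306, 11808 and 12655 in transduced embryonic cells, against 1953, 2064, 2116, 2093 and 2042 in embryonic controls. Transformed postnatal cells had 6463, 7203, 8436, 7111 and 7608, against 2677, 1874, 1369, 1699 and 1537 in postnatal controls. The transduced embryonic arrays were the highest, the transformed postnatal arrays lay below all of them, and the controls overlapped. Tapbp rose by 2.59 ± 0.12 (6.04-fold) in the embryonic response and by 2.03 ± 0.12 (4.09-fold) in the postnatal response.

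Psmb8, the immunoproteasome subunit that replaces Psmb5, had signals of 2770, 2820, 2750, 2964 and 2638 in transduced embryonic cells, against 31, 68, 418, 223 and 40 in embryonic controls, where 2 of 5 arrays were above background. In transformed postnatal cells it had 1957, 1888, 2098, 1894 and 1851, against 212, 303, 223, 114 and 178 in postnatal controls, where 4 of 5 were. Because of the dim controls the size of the embryonic change is not exact, and the mean signals are 2788 ± 119 in transduced cells and 156 ± 166 in controls (SD, n = 5 each). Psmb8 rose in both responses, by 3.20 ± 0.43 in the postnatal one.

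Psmb9, which replaces Psmb6, had signals of 2995, 3051, 3571, 3308 and 3772 in transduced embryonic cells, against 132, 444, 296, 53 and 255 in embryonic controls, with 3 of 5 above background. Transformed postnatal cells had 713, 948, 1066, 812 and 1035, against 330, 345, 170, 181 and 417 in postnatal controls. The transformed postnatal arrays lay between the transduced embryonic arrays and the controls without overlap, and the control groups overlapped. Its mean signal was 3339 ± 333 in transduced and 236 ± 151 in control embryonic cells (SD, n = 5 each), and its postnatal rise was 1.68 ± 0.36 on the log2 scale.

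Psmb10, which replaces Psmb7, was well above background in all groups. It had signals of 3636, 3718, 4104, 3932 and 3965 in transduced embryonic cells, against 2736, 2811, 3324, 3072 and 2816 in embryonic controls. In transformed postnatal cells it had 5093, 5167, 5059, 5133 and 5265, against 3666, 3710, 3741, 3083 and 3157 in postnatal controls. The log2 changes of Psmb10 were 0.39 ± 0.07 (1.31-fold; adjusted p = 0.000123) and 0.57 ± 0.07 (1.48-fold; adjusted p = 8.77e-07) in the embryonic and the postnatal response, each below the 2-fold threshold.

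Nlrc5, the transactivator, stayed near background in the controls. It had signals of 971, 613, 698, 877 and 1200 in transduced embryonic cells, against 131, 233, 170, 224 and 155 in embryonic controls, with 4 of 5 above background. Transformed postnatal cells had 637, 494, 521, 385 and 551, against 205, 149, 196, 178 and 14 in postnatal controls, with 3 of 5 above background. Nlrc5 rose by 2.15 ± 0.41 in the embryonic response, and in the postnatal response it was called higher, with mean signals of 517 ± 91.4 and 148 ± 78.4 (SD, n = 5 each).

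**Figure D2:**
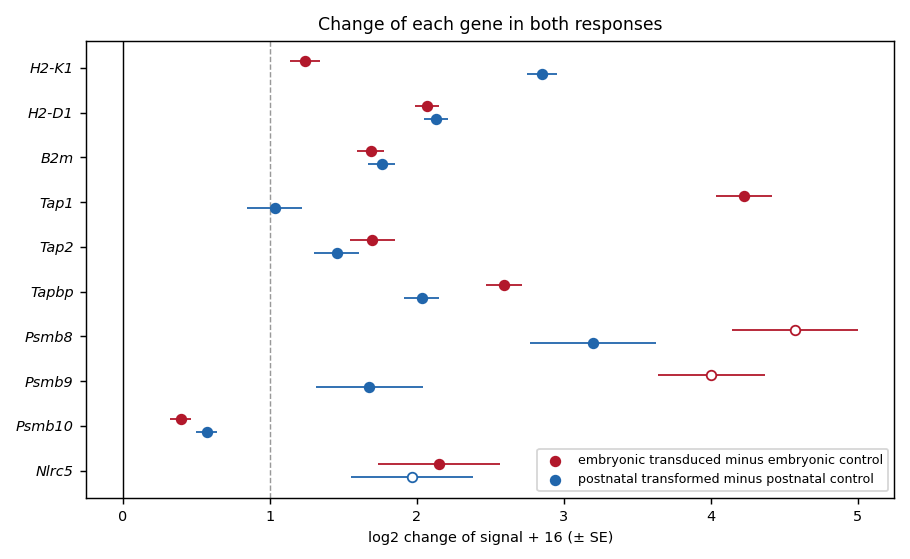
Log2 change of each member (± SE) in the embryonic response (red) and the postnatal response (blue); open circles mark a change in which 1 group was above background on 1 to 3 of 5 arrays, and the dashed line is 2-fold. Psmb10 alone lies below 2-fold in both responses, and Tap1 has changes of 4.22 and 1.03.

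Whether the responses differed was tested as an interaction term, in which the kind of modification and the age cannot be told apart. Here 3 members were called, H2-K1 with a larger postnatal response and Tap1 and Psmb9 with a larger embryonic one, where 9.36% of all genes were called higher and 9.75% lower. The H2-K1 call rests on 1 of its 4 probe sets, and the mean of all 4 gave 0.71, which was not called. The difference, postnatal minus embryonic, was 1.61 ± 0.14 for H2-K1 (adjusted p = 7.73e-09), -3.19 ± 0.27 for Tap1 (adjusted p = 2.81e-09) and -2.32 ± 0.51 for Psmb9 (adjusted p = 0.000863). Without postnatal control arrays 4 and 5 these were 1.48, -3.52 and -2.31, and Psmb8 was called too, at -1.66. Since the embryonic control level of Psmb9 was near background, its size is not exact. Tap1 and Psmb9 are the pair whose promoter windows overlap, and whether this bears on their responses was not tested. Tapbp differed by -0.56 ± 0.17 (adjusted p = 0.0114), less than 2-fold.

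The other members did not pass the test of the difference. The 95% interval of the difference ran from -0.19 to 0.35 for B2m, from -0.18 to 0.30 for H2-D1, from -0.69 to 0.21 for Tap2 and from -0.03 to 0.39 for Psmb10. For Psmb8 it ran from -2.63 to -0.12 (adjusted p = 0.0802) and for Nlrc5 from -1.40 to 1.04, which leaves room for more than a 2-fold difference either way. The Psmb8 difference was called, at -1.84, without embryonic control array 3, at -1.63 without embryonic control array 4 and at -1.55 without postnatal control array 4.

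**Figure D3:**
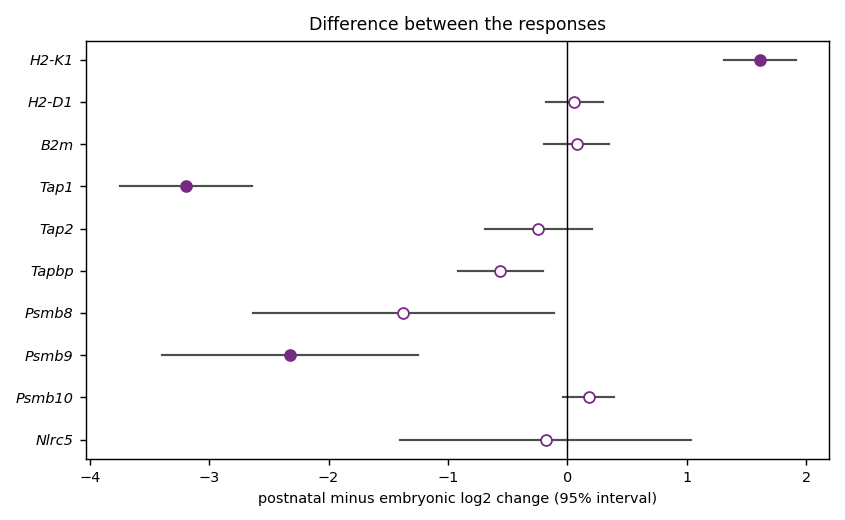
Difference of the responses, postnatal minus embryonic log2 change, for each member, with its 95% interval; filled circles are called. H2-K1 lies at 1.61, Tap1 at -3.19 and Psmb9 at -2.32, and the intervals of B2m and H2-D1 lie within 0.35 of 0.

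Between the controls, 1 member was called, and it was lower in postnatal cells, H2-K1 at -1.82 ± 0.10 (adjusted p = 1.42e-11), where 5.72% of all genes were called lower and 4.86% higher. Of its 4 probe sets, 2 called it (-1.82 and -1.70), while the others gave -0.30 and -0.59 and did not. Tap1 was at 0.94 ± 0.19 (adjusted p = 0.000484), below 2-fold with all arrays, and it was called without embryonic control array 4 (1.01) or without postnatal control array 4 (1.03) or 5 (1.10). Psmb8 was called, at 1.32, without embryonic control array 3. The 2 groups of controls overlapped in 7 members, while Tap1 was higher and H2-K1 and B2m lower in postnatal controls without overlap (11.2% of all genes were higher and 11% lower in that way).

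Between the modified groups, transformed postnatal minus transduced embryonic, 2 members were called lower, Tap1 at -2.25 ± 0.19 (adjusted p = 8.75e-10) and Psmb9 at -1.86 ± 0.36 (adjusted p = 0.000147), where 13.7% of all genes were called lower and 11.7% higher. Tapbp was at -0.76 ± 0.12 and Psmb10 at 0.41 ± 0.07, both below 2-fold. The groups did not overlap in 6 members, 5 of them lower and Psmb10 higher in postnatal cells (24.8% of all genes were lower and 21.8% higher in that way). The median of all genes was -0.14 in this comparison, and 0.00 after quantile normalization, so small differences here rest on the scaling. Brain region, culture and preparation cannot be told apart from age in these comparisons.

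Averaged over the members on each array, the modified cells lay above the controls without overlap. The mean log2 signal lay between 12.57 and 12.80 in transduced embryonic cells, against 9.95 to 10.54 in embryonic controls. It lay between 11.996 and 12.157 in transformed postnatal cells, against 9.90 to 10.42 in postnatal controls, where arrays 4 and 5 were lowest, at 10.05 and 9.90. The median SD of a member on the log2 scale was 0.12 in transduced and 0.15 in control embryonic cells, and 0.11 in transformed and 0.33 in control postnatal cells.

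The 10 genes were read by 27 single-symbol probe sets, each a group of short probes that together give 1 signal. Of these probe sets, 14 were above background on all 20 arrays and 6 on all arrays of no group. Genes were represented above by the probe set with the highest mean. Heavy chain genes are near-identical to one another over long stretches and most of their probe sets carry a suffix for probes shared with other transcripts, so the split of signal between them is uncertain. The postnatal to embryonic difference in H2-K1 depended on the probe set. It was 1.61 in the one used and 0.91 (adjusted p = 0.00155) in another, against 0.08 and 0.22 in the other two.

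The H2-K1 probe set with a difference of 0.08 read 13730, 14354, 16305, 18270 and 17411 in transduced embryonic cells, against 4336, 3861, 4762, 4470 and 4198 in embryonic controls. It read 14591, 14306, 11832, 13126 and 14848 in transformed postnatal cells, against 3742, 3916, 3720, 3281 and 2926 in postnatal controls. There the postnatal controls lay only 0.30 below the embryonic controls on the log2 scale, and the rises were 1.88 in the embryonic and 1.96 in the postnatal response. The rise of H2-K1 itself did not depend on the probe set in direction, with all 4 between 1.10 and 1.88 in the embryonic and between 1.33 and 2.85 in the postnatal response.

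Another Tap1 probe set was above background in transduced embryonic cells, at 318, 339, 737, 346 and 679, and on none of the other 15 arrays, so no postnatal change or difference is given for it. A dim H2-D1 probe set behaved in the same way, at 349, 504, 263, 457 and 254 in transduced embryonic cells and above background nowhere else. The 4 H2-D1 probe sets above background on all 20 arrays rose by 1.93 to 2.49 in the embryonic and by 1.94 to 2.61 in the postnatal response. Both probe sets of B2m (1.69 and 1.61, then 1.76 and 1.85) and of Tapbp (2.59 and 2.05, then 2.03 and 1.56) were called higher in both responses. A further Psmb8 probe set was called higher in the postnatal response (1.66) although above background on 2 of 20 arrays.

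**Figure D4:**
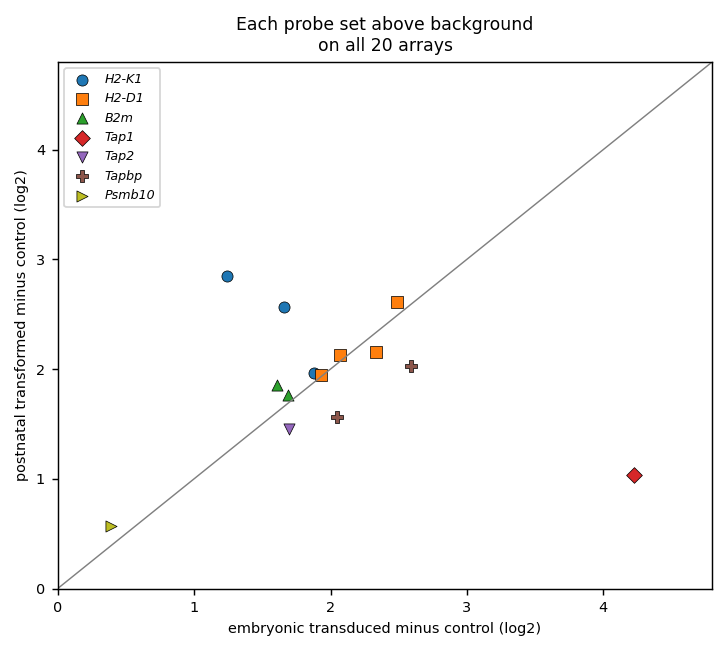
Log2 change in the postnatal response (y axis) against that in the embryonic response (x axis) for the 14 probe sets above background on all 20 arrays; the line marks equal changes. The Tap1 probe set, at 4.22 and 1.03, lies far below the line, and of 3 H2-K1 probe sets 2 lie above it and 1 near it.

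On chromosome 17 lie 7 members, in the order Tapbp, H2-K1, Psmb9, Tap1, Psmb8, Tap2 and H2-D1, B2m lies on chromosome 2, and Psmb10 and Nlrc5 lie on chromosome 8. Of 75 other measured genes between Tapbp and H2-D1, 5 rose and 5 fell in the embryonic response, and 8 rose and 2 fell in the postnatal response. Those higher are 6.67% and 10.7% of the neighbours, beside the 8.61% and 9.56% of all genes given above.

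The catalytic subunits that the immunoproteasome replaces were well above background in all groups and not called. Psmb5 changed by -0.35 in the embryonic and -0.79 in the postnatal response, Psmb6 by -0.48 and -0.23, and Psmb7 by -0.14 and -0.10, all under 2-fold. Psmb5 was still lower without overlap in both responses. It read 20195 to 22358 in transduced and 25456 to 28108 in control embryonic cells. In transformed and control postnatal cells it read 14843 to 16864 and 24696 to 28107. Psmb6 was lower without overlap in the embryonic response alone, and the Psmb7 groups overlapped in both. Of 30 measured genes of the constitutive proteasome and its activators, 1 was called higher and none lower in the embryonic response. There 24 had an unadjusted limma p under 0.05. In the postnatal response limma called none, and 11 had an unadjusted p under 0.05. The list's median log2 changes were -0.28 and -0.10, against 0.08 and -0.00 for all genes. The gene that rose was Psme1, a subunit of the interferon-inducible proteasome activator PA28, with signals of 24201, 22154, 22493, 22632 and 23858 in transduced cells, against 9383, 9637, 10009, 9904 and 10051 in embryonic controls. It rose by 1.23 in the embryonic response and changed by -0.13 in the postnatal one, a difference of -1.37 that was called lower. The smallest p-values of that list also belonged to Pomp, the proteasome assembly chaperone (-0.72 and -0.17), and Psmc5, a subunit of the cap (-0.93 and 0.15), which were not called.

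Of 14 measured chaperones and peptidases of peptide loading, 1 rose in each response and none fell. It was Tapbpl, a tapasin relative, with mean signals of 297 and 166 in transduced and control embryonic cells, where 2 of 5 control arrays were above background, and with a rise of 1.58 in postnatal cells. Bcap31, an endoplasmic reticulum sorting protein, had changes of 0.28 and 0.82, Npepps, a cytosolic aminopeptidase, of 0.35 and -0.95, Thop1, a cytosolic peptidase, of 0.12 and -0.94, and Sec61b, a subunit of the translocon, of -0.44 and -0.05, none of them called.

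Of 13 measured class I and class I-like heavy chains beside the members, 4 rose and none fell in the embryonic response, and 7 rose and 1 fell in the postnatal response, with medians of 0.60 and 1.16. Mr1, which presents metabolites to MAIT cells, had mean signals of 1768 and 164 in transduced and control embryonic cells, with 3 of 5 control arrays above background, and rose by 2.22 in postnatal cells. H2-Q5 had mean signals of 1106 and 211 in transduced and control embryonic cells and of 773 and 104 in transformed and control postnatal cells, with 3 and 2 control arrays above background. Hfe, a regulator of iron uptake, rose by 3.01 in the postnatal response and changed by 0.79 in the embryonic one (difference 2.23, called). Cd1d1, which presents lipids, went the other way, with a fall of 1.79 on the log2 scale in the postnatal response and a change of -0.85 in the embryonic one.

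**Figure D5:**
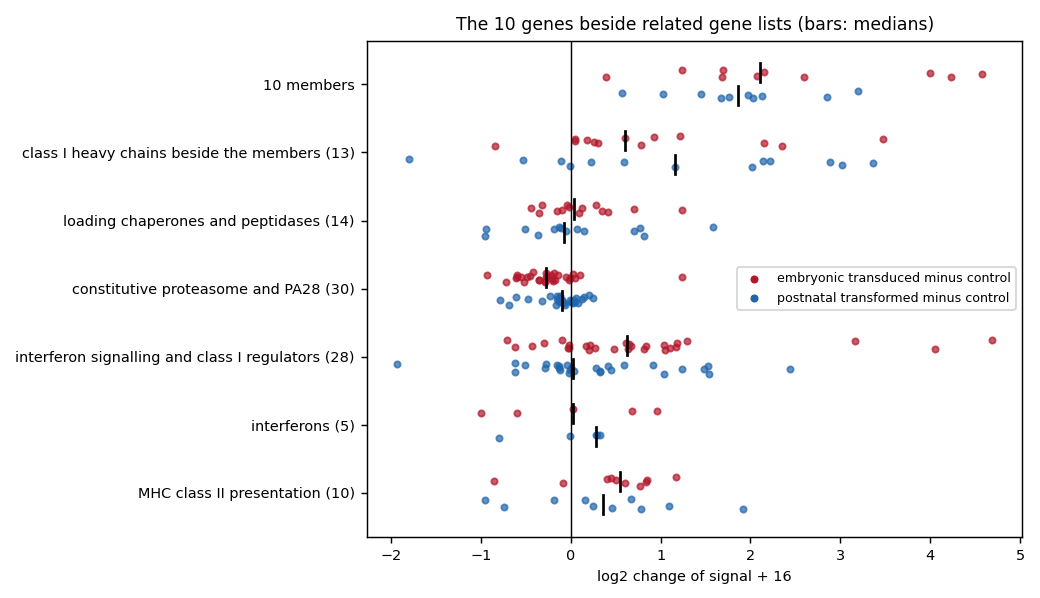
Log2 change of each of the 10 members and of each measured gene of 6 related lists in the embryonic response (red) and the postnatal response (blue), with the list median as a bar and the number of genes in brackets. All members lie above 0, while the constitutive proteasome lies near or below 0 but for Psme1 at 1.23.

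Among 28 measured genes of interferon signalling and class I regulation, 8 rose and none fell in the embryonic response, and 6 rose and 1 fell in the postnatal response. In the difference of responses 1 was called higher and 7 lower. Irf9, a subunit of the interferon-activated factor ISGF3, had signals of 9488, 9001, 8934, 8107 and 9338 in transduced embryonic cells, against 523, 387, 692, 660 and 437 in embryonic controls, a rise of 4.05. It had 1572, 1681, 1617, 1613 and 1780 in transformed postnatal cells, against 831, 620, 379, 515 and 549 in postnatal controls, a rise of 1.53. As with Tap1, its embryonic rise was the larger (difference -2.52, called).

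Irf7, another interferon regulatory factor, had mean signals of 6061 in transduced and 240 in control embryonic cells, and of 475 in transformed and 171 in control postnatal cells, with 3 of 5 arrays of each control group above background. Socs3, a feedback inhibitor of cytokine signalling, rose by 3.17 in the embryonic response and changed by -0.12 in the postnatal one, and Irf3 rose by 1.10 and changed by -0.12. Rfx5, a subunit of the X box factor on class I and class II promoters, rose by 1.29 in the embryonic response and changed by -0.27 in the postnatal one, a difference of -1.56 that was called. Irf1, an activator of class I genes, had changes of 0.61 and 0.91, under 2-fold, and was not called. It was still higher without overlap in both responses, as were 18.8% and 16.4% of all genes. Its signals were 2473 to 3784 in transduced and 1584 to 2259 in control embryonic cells. In transformed and control postnatal cells they were 3200 to 3690 and 1506 to 2057.

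None of 5 measured interferon genes was called by limma in either response, and 1 in the embryonic and 0 in the postnatal response had an unadjusted p under 0.05. Ifnb1, for example, had mean signals of 266 in transduced and 134 in control embryonic cells, with 4 and 2 of 5 arrays above background. Of 10 measured MHC class II genes none was called by limma in the embryonic response (2 at an unadjusted p under 0.05) and 1 rose in the postnatal one, H2-DMa, a peptide exchange factor subunit, by 1.92. Ciita, the class II transactivator, had mean signals of 243 in transduced and 159 in control embryonic cells, with 4 and 2 of 5 arrays above background, and of 213 in transformed and 215 in control postnatal cells. It was not called, and neither were H2-Ab1, H2-Eb1 and Cd74, which form or guide class II molecules.

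The arrays were also read for markers of other cells. Of 14 leukocyte and microglia markers, 2 rose in each response, Cd68 in both (1.31 in the embryonic response, and 614 against 262 mean signal in the postnatal response), Itgam in the embryonic response while below background on all arrays, and Fcer1g in the postnatal response. The summed signal of these markers was 2916 to 4410 in transduced and 2051 to 2782 in control embryonic cells. It was 1791 to 2390 in transformed and 1372 to 1815 in control postnatal cells. Background levels summed over the same markers were 2044 to 3095 and 1951 to 3003 in the embryonic groups. In the postnatal groups they were 1504 to 2796 and 1681 to 2382, in the same order. Ptprc, which all leukocytes carry, was above background on 2 of 5 transduced and 1 of 5 control embryonic arrays, and on 1 of 5 transformed and 2 of 5 control postnatal arrays. Of these markers, 5 and 7 were above background on no array of transduced and control embryonic cells. The counts were 6 and 7 for transformed and control postnatal cells. Csf1r was above background on every array, and Cd14 on every embryonic array. Cd68 was so on every array of all groups but the postnatal controls, with 4 of 5.

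Of 9 endothelial and mural markers, 2 rose and 1 fell in the embryonic response and 1 rose in the postnatal one, and their summed signal was 3786 to 5378 in transduced and 9058 to 20192 in control embryonic cells, and 1486 to 1925 in transformed and 927 to 1952 in control postnatal cells. Most of the embryonic sum was Acta2, a smooth muscle actin, which fell by 2.06. Of 5 fibroblast markers limma called none in either response (1 in the embryonic and 0 in the postnatal response had an unadjusted p under 0.05), with sums of 1070 to 1650 in transduced and 1484 to 2347 in control embryonic cells, and 468 to 900 in transformed and 366 to 1086 in control postnatal cells. Of 8 measured glial progenitor markers, 3 fell in the embryonic response, Sox10, Pdgfra and Cspg4, and 1 rose in the postnatal one, Nes (5.74% and 6.4% of all genes were called lower in the embryonic and the postnatal response). The labels name only progenitors. In transduced and control embryonic cells Pdgfra averaged 596 and 7629, Cspg4 1261 and 4278, and Sox10 189 and 2601, with Sox10 above background on 2 of 5 transduced arrays and on all arrays of the other groups. Their summed signal was 233385 to 247666 in transduced and 356261 to 401155 in control embryonic cells, and 349987 to 373504 in transformed and 341359 to 447794 in control postnatal cells. The sum was lower in transduced embryonic cells than in their controls, without overlap. The part of these markers in the results was not tested, and fewer cells of a type and less RNA per cell cannot be told apart in bulk samples.

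RNA integrity was read from the log2 ratio of the 3′ to the 5′ probe set of Gapdh and of Actb, which differed between groups by at most 0.25 and 0.14. The Gapdh ratio moved by 0.08 in the embryonic and -0.09 in the postnatal response (exact permutation test, two-sided, adjusted over 8 comparisons, p = 0.0363 and 0.0212), and the Actb ratio by 0.10 and 0.03 (exact permutation adjusted p = 0.0159 and 0.198). Its part in the results was not tested.

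The genes whose 20 values lay closest to the members' mean profile were named by a fixed measure, the mean absolute difference of centred log2 values among 10831 genes with a mean signal over 500. They were Serpinb6a at 0.164, Esyt1 at 0.191, Lratd2 at 0.192, Fhdc1 at 0.230 and Vldlr at 0.242. The members themselves ranged from 0.164 for Tapbp to 0.888 for Psmb8, and B2m (0.239) and H2-D1 (0.265) were the next closest. Serpinb6a rose by 2.11 in the embryonic and by 1.65 in the postnatal response.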

How the data were processed

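The deposited values are a single linear signal intensity for each of 45101 probe sets on each of 20 arrays. The authors' software and normalization were not given in the sources used here. After trimming 2% at each end, every array had a mean of 2500, and intensities were used as deposited. GEO's platform annotation gave 1 symbol to 34945 probe sets, several to 932, and did not list 9160. Those with several symbols stayed unnamed, and a gene took the values of its brightest single-symbol probe set by mean log2. Background was the 95th percentile of 27 bacterial control probe sets on each array. Precision is limited by 5 arrays a group.

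log2(signal + 16) was fitted with limma 3.58.1 (lmFit, eBayes with trend) in R 4.3.3 (data.table, version 1.17.8), two-sided, with Benjamini-Hochberg adjustment over 18193 genes. The fit was tested on simulated data. Tables and figures used Python 3.11.15, pandas 2.3.3, SciPy 1.17.1 and matplotlib 3.10.9. Beyond the members, up to 4 genes of each list with the smallest p in a response, the 5 nearest profiles and Psmb5, Psmb6, Psmb7, Irf1, Irf9, Rfx5 and Ciita were eligible for naming (a further gene of that rule and a motif are not reported here); other names were chosen after their values were seen. Members and lists were chosen with earlier results of these data known. Alternatives in scaling, offset, probe set rule, filter, variance model, samples and replicate block were run. Deviations of same-numbered arrays correlated at -0.053 to 0.032 over all genes. Such low values cannot settle whether the replicate numbers mark pairs.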

Additional observations from a re-analysis of the deposited data

Results flagged for a closer look

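The B2m signal of 71504 on transduced embryonic array 1 lay apart from the other 4 arrays of its group (79220 to 80790), with a gap of 0.831 of the group's range. It was the single such value in 40 groups of 5 arrays, and chance alone gives about 1 in 20 groups. It stayed above all embryonic controls.

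The responses of 3 members differed by the interaction test, postnatal minus embryonic, in which age and kind of modification cannot be told apart, namely H2-K1 (1.61), Tap1 (-3.19) and Psmb9 (-2.32). For H2-K1 the difference ranged from 0.08 to 1.61 over its 4 probe sets. Tap1 had 1 probe set above background on all 20 arrays. Psmb9 had 1 probe set, with 3 of 5 embryonic control arrays above background.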

How the results depend on the processing

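The counts of members called in the responses, 9 and 9, stayed within 1.5 times under every alternative run. Requiring every probe set of a gene to be called gave 6 members in the embryonic and 7 in the postnatal response. It gave 1 member in the difference of responses, 1 between the modified groups and 0 between the controls. Besides Psmb10, the members lost were H2-D1 and Tap1 in both responses and Psmb8 in the embryonic one. Of their probe sets 3 of 9, 2 of 4 and 1 of 2, in that order, were above background on all arrays of no group. Adjusted p alone gave 5 members between the modified groups and 4 between the controls. Leaving out postnatal control arrays 4 and 5 gave 2 between the controls, and leaving out single arrays gave 1 to 2 there. The calls over all genes there were 1367 and 1603 to 2110, against 1925 with all arrays. With a replicate block the counts were 9, 9 and 3, as without it, and the calls over all genes were 2570, 2886 and 3451. The best match of an array was its own number in 1 of 10, which cannot settle whether the numbers pair the samples. The block could not be fitted for the age comparisons. Adjusted p alone raised the calls over all genes to 7162 from 2611 in the embryonic response, to 7692 from 2904 in the postnatal one, to 7083 from 3475 in their difference, to 5830 from 1925 between controls and to 9479 from 4634 between modified groups. Requiring all probe sets gave 1777 in the embryonic and 1977 in the postnatal response. It gave 2210 in the difference, 1228 between controls and 3267 between modified groups. Tap1 lost its postnatal call under quantile normalization (0.98), an offset of 64 (0.96) and the mean of all probe sets (0.13), and the H2-K1 difference lost it under that mean (0.71). Small values changed sign. H2-D1 between the modified groups was -0.010 under quantile normalization and -0.45 under the mean of all probe sets, which also gave -0.18 for its difference and 0.15 for Psmb8 between the modified groups. That mean weighs equally the dim probe sets of H2-D1, Tap1 and Psmb8 counted above. Without postnatal control arrays 4 and 5 the B2m difference was -0.11 and Nlrc5 between the controls 0.023. Leaving out single arrays gave H2-D1 between the controls -0.056 to 0.025, the B2m difference -0.033 to 0.15 and Nlrc5 between the controls -0.71 to 0.015. The cause was not tested. Genes near background, Psmb8, Psmb9 and Nlrc5 in the controls, have the least exact changes.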
